A study of Mus musculus with 4 samples.

Results

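The miR-26 family of the mouse consists of miR-26a-5p and miR-26b-5p, and both were followed through 4 small RNA libraries of the dendritic cell (DC) lineage. They were taken by name from a deposited table of 1078 mature miRNAs, in which these 2 were the only entries with the seed UCAAGUA (bases 2 to 8, the stretch that pairs with target mRNAs). The libraries were sequenced on the Solexa platform, 1 per cell type and without replicates, from mice of the C57BL/6J strain. HSC were haematopoietic stem cells, sorted from bone marrow as c-Kit+ Sca1+ Lineage- cells to a purity above 95%. Immature DC (imDC) were grown from bone marrow of mice aged 5 to 6 weeks for 6 days with the cytokines GM-CSF (10 ng/mL) and IL-4 (1 ng/mL). Mature DC (maDC) came from the same kind of culture, were given LPS, a bacterial cell wall component, at 10 ng/mL after loose cells were removed on day 4, and were picked with CD11c beads on day 8. Regulatory DC (DCreg), which the series' design text describes as producing IL-10 and NO, were maDC kept on endothelial-like splenic stromal cells for at least 7 days, in medium with serum, and picked again on CD11c beads. All are bulk populations, so fewer cells of a type and less RNA per cell cannot be told apart.

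A miRNA represses the mRNAs that its seed can pair with, so members with the same seed can pair with many of the same sites. The miR-26 genes lie within the Ctdsp genes, which encode small phosphatases that act on RNA polymerase II. The family is known for repression of the histone methyltransferase EZH2 and for its own repression by MYC in lymphoma cells. In human lung epithelial cells, addition of uridines to the 3′ end of miR-26a by the enzyme ZCCHC11 is known to lift the repression of the cytokine IL-6. The 3′ ends of the family are therefore of interest beside its levels.

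The mature sequences are shown because the bases beyond the seed decide how reads were assigned. They are RefSeq sequences of GRCm38.p6, with the seed in capitals.
miR-26a-5p: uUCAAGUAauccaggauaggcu
miR-26b-5p: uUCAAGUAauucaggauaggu
Counted from the 5′ end, the members differ by C11U and C21U (the base of miR-26a-5p first), and miR-26a-5p has 22 nt against 21 nt of miR-26b-5p. A read that reaches base 11 can therefore be given to either member, and every read counted here did.

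The precursor hairpins are shown because they fix which 3′ bases can come from the gene and which cannot. Capitals mark the 5p miRNA.
Mir26a-1: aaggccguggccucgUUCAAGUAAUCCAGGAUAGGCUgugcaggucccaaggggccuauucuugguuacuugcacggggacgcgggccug
Mir26a-2: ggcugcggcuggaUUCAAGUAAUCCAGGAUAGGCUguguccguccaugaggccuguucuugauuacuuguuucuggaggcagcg
Mir26b: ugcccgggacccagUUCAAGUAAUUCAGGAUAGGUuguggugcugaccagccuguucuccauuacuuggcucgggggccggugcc
Mir26a-1 lies at chr9:119031796-119031885, inside Ctdspl and outside its exons. Mir26a-2 lies at chr10:126995530-126995613, overlapping an exon of a protein-coding and of a retained-intron transcript of Ctdsp2 in the GENCODE annotation. Mir26b lies at chr1:74394310-74394394, inside Ctdsp1 and outside its exons. All 3 hairpins are on the plus strand, as are their host genes. After miR-26a-5p both hairpins go on with G, so a U or A at that place is not in the gene, whereas Mir26b goes on with U and then G.

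The deposited table gives whole numbers under the name of normalised counts. They were summed over hairpins and expressed as ppm, the parts in 1000000 of each library's total, which lay between 2725948 (DCreg) and 5251069 (imDC). Reads were also recounted from the deposited lists of unique sequences, which placed 3928400 (DCreg) to 5515198 (maDC) reads on miRNAs. Intervals on recounted values are exact 95% intervals (Clopper-Pearson, or the conditional interval for a fold). They cover counting error only, because copies made by PCR carry no molecular identifier and cannot be counted as separate molecules. With 1 library per cell type no test was possible, and no difference has a replicate check. Summed levels of the marker miRNAs for activated DC were 7818 ppm in HSC, 93684 in imDC, 70135 in maDC, with 37884 in DCreg. Most of each sum was miR-146b-5p, at 6182 ppm in HSC, 89225 in imDC, 67585 in maDC, with 36546 in DCreg. miR-146a-5p, of the same list, was instead highest in HSC, at 1561, 1105, 309 and 1115 ppm in that order. Of 7 HSC and progenitor markers, 4 reached 100 ppm in HSC, while miR-126-3p and miR-126-5p stood at 49.2 and 71.7 ppm there. The 7 summed to 3171 ppm in HSC, 635 in imDC, 1078 in maDC, with 3850 in DCreg. miR-126-3p was at 0.367 to 1.90 ppm in the DC libraries, miR-126-5p at 1.10 to 6.09 ppm, and miR-196b-5p at 2.46 to 33.7 ppm against 251 in HSC. The others did not fall in DCreg in this way. miR-99a-5p had 345 ppm in DCreg, against 175 in HSC, miR-125b-5p 363 against 58.0, and miR-130a-3p 1086 against 372. miR-10a-5p was at 2042 ppm in DCreg and 2193 in HSC. miR-130a-3p had no recounted reads in any library, so its deposited values lack that check. miR-155-5p, induced in activated DC, had 47.6 ppm in HSC, 2609 in imDC, 1651 in maDC, with 141 in DCreg. miR-147-3p, the last marker for activated DC, had 28.2 ppm in HSC, 745 in imDC, 589 in maDC, with 82.2 in DCreg. By the column total, all 4 markers for activated DC were thus lower in maDC, the cells given LPS, than in imDC. The HSC library also held 15231 ppm of 4 erythroid miRNAs and 1083 ppm of 5 stromal ones. The erythroid sums in the DC libraries were between 1.56 and 19.4 ppm. The stromal sums were 61.3 ppm in imDC, 177 in maDC and 255 in DCreg, and none of the 5 was at 0 in the deposited values. Of the 4 erythroid miRNAs, 1 was at 0 in maDC and 1 in DCreg.

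Both members were most abundant in HSC. miR-26b-5p stood at 11724 ppm in HSC, 5102 in imDC, 3724 in maDC, with 2262 in DCreg. Scaled by the column total, its level was lower at each step of the lineage, although TMM and median-of-ratios turned the step from imDC to maDC (log2 ratios 0.10 and 0.25). Its rank among all miRNAs was 18 in HSC, 32 in imDC, 25 in maDC, with 31 in DCreg. miR-26a-5p stood at 5750 ppm in HSC, 2501 in imDC, 1572 in maDC, with 2331 in DCreg. It was lowest in maDC by the column total and the recount, whereas with median-of-ratios maDC lay above imDC by 0.03 on the log2 scale. DCreg was closest to imDC in these values, but closer to maDC in the recount given next. Together the members held 1.75% of the HSC values, 0.760% of imDC, 0.530% of maDC and 0.459% of DCreg.

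The recount gave the same order of libraries for each member. miR-26b-5p had 7715 ppm in HSC (interval 7640 to 7791), 4327 in imDC (4271 to 4384), 2624 in maDC (2582 to 2667), with 1361 in DCreg (1325 to 1398). miR-26a-5p had 7328 ppm in HSC (7255 to 7402), 4174 in imDC (4119 to 4229), 2135 in maDC (2097 to 2174), with 2770 in DCreg (2718 to 2823). No pair of libraries had overlapping counting intervals for either member. In reads the members were close to equal in HSC and imDC, unlike in the deposited values.

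**Figure D1:**
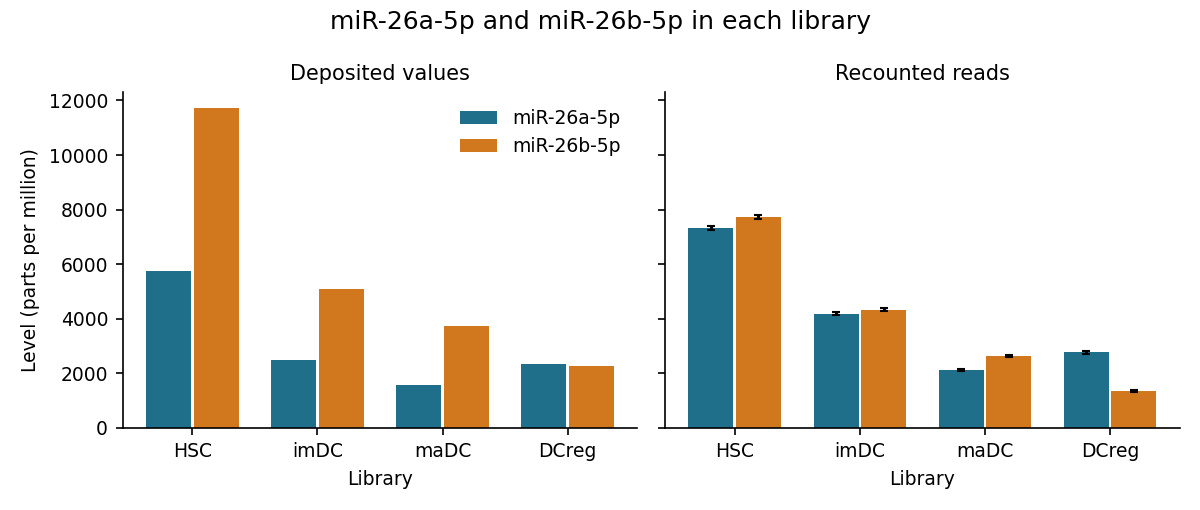
Level of miR-26a-5p (blue) and miR-26b-5p (orange) in ppm, by library in order of the lineage, from deposited values (left) and recounted reads (right, bars with exact 95% counting intervals). On both scales shown miR-26b-5p is lower at each step and miR-26a-5p is lowest in maDC; with median-of-ratios, not drawn, both are higher in maDC than in imDC (log2 ratios 0.25 and 0.03), and with TMM miR-26b-5p is (0.10).

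The gap between the members within a library depended on the source of the values. The deposited value per recounted read was between 0.584 (DCreg) and 0.639 (HSC) for miR-26a-5p and between 1.15 (maDC) and 1.24 (HSC) for miR-26b-5p. The deposited value of miR-26b-5p was thus above the number of its reads in all 4 libraries. Each member's factor differed little between libraries, but over all miRNAs the deposited value per recounted read was 0.814 in HSC, 0.999 in imDC, 0.811 in maDC, with 0.694 in DCreg. Folds between libraries therefore differ between the sources, and both are given below. The deposited entries for the hairpins of miR-26a-5p were 12112 for Mir26a-1 and 12192 for Mir26a-2 in HSC, 6505 and 6628 in imDC, 3534 and 3502 in maDC, and 3170 and 3185 in DCreg. The mature sequence is the same for both genes, and only 6 HSC reads (1 for Mir26a-1 and 5 for Mir26a-2) ran far enough into the hairpin to tell them apart. The levels therefore say nothing of which gene the reads came from.

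The opposite arms of the hairpins were nearly absent. Of recounted reads, miR-26a-1-3p and miR-26a-2-3p together had 4 in HSC, 8 in imDC and none in maDC or DCreg. miR-26b-3p had 2 reads in imDC and none in the other libraries. The 3p arm of miR-26a made up 0.0105% of the reads of both arms in HSC (0.00286% to 0.0269%) and 0.0364% in imDC (0.0157% to 0.0718%). The count of 0, taken as fewer than 3 reads, allows up to 0.0255% in maDC and 0.0276% in DCreg, and the upper Clopper-Pearson bounds are 0.0313% and 0.0339%. The 5p arm was thus the strand kept in every library for both members, and no difference in arm use was detectable at this depth.

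The first step, from the progenitor to the cytokine-grown DC, set imDC against HSC. A miRNA was called different at a ratio of 2-fold or more with at least 100 ppm in 1 of the 2 libraries. Both members were lower in imDC, to the same extent. miR-26a-5p stood at 2501 ppm in imDC and 5750 in HSC, 2.30-fold lower. miR-26b-5p stood at 5102 ppm in imDC and 11724 in HSC, also 2.30-fold lower. Of 187 miRNAs tested, 28.3% were called lower and 26.2% higher (54.5% in either direction), so a fall of this size was common, and 40 of the others lay below miR-26a-5p in that ordering. In recounted reads miR-26a-5p was 1.76-fold (1.73 to 1.79) and miR-26b-5p 1.78-fold (1.75 to 1.81) lower, under the 2-fold limit. Of 143 miRNAs tested in the recount, 53 were higher and 26 lower by 2-fold (18.2% lower), with a median log2 ratio of 0.42. The log2 ratios also moved with the scaling, from -1.20 for both to -0.99 with TMM (scaling by a trimmed mean of M-values) and -0.95 with all reads as the total, both of which ended the call. The split of calls moved too, to 62 higher and 40 lower with TMM, against 49 and 53 with the column total. Relative to the median of tested miRNAs, which moves with the scaling as they do, they lay at -1.09 and -1.08.

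The members moved closely together at this step. The ratio of miR-26b-5p to miR-26a-5p changed by 0.00078 on the log2 scale between imDC and HSC in the deposited values and by 0.022 in the recount. Among 70 other pairs of miRNAs with a shared seed, each at 100 ppm in both libraries, the median change was 0.73. All 70 changed by more in the deposited values and 69 by more in the recount. These pairs cover 14 seeds and share members, so they are not independent. The erythroid and stromal miRNAs named above were also higher in HSC, as was the lymphoid miR-150-5p, at 17.1 ppm in imDC and 914 in HSC, and their part in the fall of the miR-26 members was not tested.

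The maDC were then compared with imDC, a step that combines LPS, longer culture and the CD11c selection. miR-26a-5p had 1572 ppm in maDC, against 2501 in imDC, a log2 ratio of -0.67. miR-26b-5p had 3724 ppm in maDC, against 5102 in imDC, a log2 ratio of -0.45. Neither reached 2-fold, while 45% of 160 tested miRNAs were called lower and 9.38% higher (54.4% in either direction). The median of the tested miRNAs was -0.88, so both members lay above it, by 0.21 and 0.43. The recount gave 1.95-fold (1.91 to 2.00) lower for miR-26a-5p and 1.65-fold (1.61 to 1.68) lower for miR-26b-5p, where 2 of 130 tested miRNAs were higher and 78 lower by 2-fold, with a median log2 ratio of -1.30.

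The direction at this step depended on the scaling. With TMM the log2 ratio was -0.12 for miR-26a-5p and 0.10 for miR-26b-5p, and with median-of-ratios it was 0.03 and 0.25. The let-7 family, the largest group of reads, moved with this: it held 47.6% of the deposited values in maDC and 28.9% in imDC. Of recounted reads it held more, 72.9% in maDC and 48.7% in imDC, so the recount folds also depend on it. With let-7 left out of the deposited total, an alternative chosen after seeing the data, the ratios were -0.23 and -0.014. No recount fold without let-7 is given here. The calls over all miRNAs were 27 higher and 46 lower with TMM and 30 and 37 with median-of-ratios, against 15 and 72 with the column total. The part of let-7 in the lower levels beyond that calculation was not tested.

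Regulatory DC were compared with the maDC they were made from. Here the members parted. miR-26a-5p had a level of 2331 ppm in DCreg, against 1572 in maDC, 1.48-fold higher (recount 1.30-fold, 1.26 to 1.33). miR-26b-5p had a level of 2262 ppm in DCreg, against 3724 in maDC, 1.65-fold lower (recount 1.93-fold, 1.87 to 1.99). Neither reached 2-fold in the deposited values, and of 138 tested miRNAs 20.3% were called higher and 28.3% lower (48.6% in either direction). Against the median of the tested miRNAs, miR-26a-5p lay at 0.91 and miR-26b-5p at -0.38 on the log2 scale. The signs of both ratios were the same under every scaling tried. miR-26b-5p was 2-fold lower with all reads as the total (log2 ratio -1.01).

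**Figure D2:**
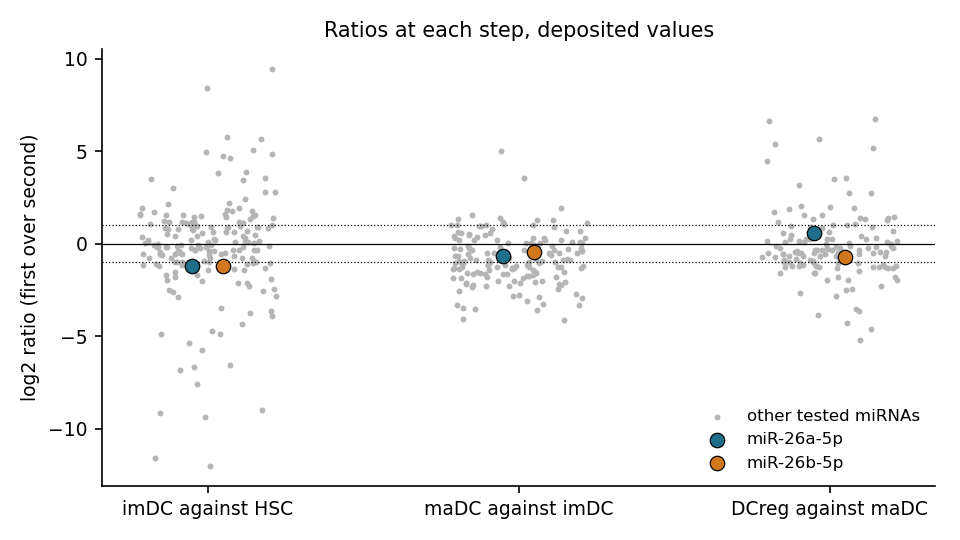
Log2 ratio of deposited levels at each step for the miRNAs of at least 100 ppm in 1 of the 2 libraries (grey) and for the miR-26 members (colours); dotted lines mark 2-fold. The members coincide at -1.20 in imDC against HSC and part to 0.57 and -0.72 in DCreg against maDC.

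The balance between the members does not depend on any scaling between libraries. Of reads of the family, miR-26b-5p made up 51.3% in HSC (50.9% to 51.6%), 50.9% in imDC (50.4% to 51.4%), 55.1% in maDC (54.5% to 55.7%), with 32.9% in DCreg (32.2% to 33.7%). DCreg stood apart from the 3 other libraries, which lay within 5 points of each other. The deposited values gave 67.1%, 67.1%, 70.3% and 49.2% in the same order. The number of miR-26b-5p reads per miR-26a-5p read was 2.50-fold lower in DCreg than in maDC (2.40 to 2.61), and 2.44-fold lower by the deposited values. It was 2.11-fold lower in DCreg than in imDC (2.03 to 2.19). A change of this size between members of a seed family was not rare: of 55 other same-seed pairs, 15 changed by more between DCreg and maDC in the deposited values and 16 in the recount. The 5 stromal miRNAs summed to 255 ppm in DCreg, against 177 in maDC, but did not move alike. miR-143-3p had 155 ppm in DCreg, against 40.9 in maDC, and miR-145-5p had 9.90 against 2.68. miR-199a-3p (79.6 against 120 ppm), miR-214-3p (9.54 against 13.6) and miR-199a-5p (0.367 against 0.447) were lower in DCreg. The part of the stromal miRNAs in the shift was not tested.

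**Figure D3:**
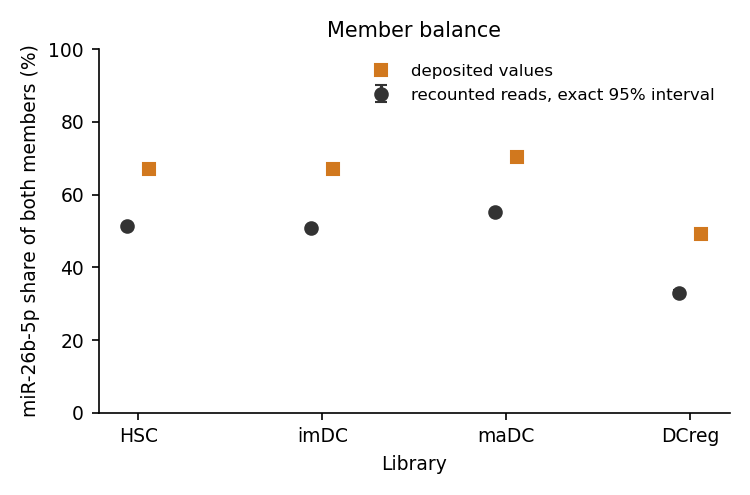
Share of miR-26b-5p in the sum of both members, in percent, by library, from recounted reads (circles, exact 95% counting intervals smaller than the symbols) and deposited values (squares). Both are lowest in DCreg, at 32.9% and 49.2%.

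Reads that could belong to either member were few. Sequences with the miR-26b-5p body up to base 20 followed by C, the base of miR-26a-5p at position 21, made up 1.16% of miR-26b-5p reads in HSC, 1.06% in imDC, 0.974% in maDC, with 1.96% in DCreg. Per 100 miR-26a-5p reads they numbered 1.22, 1.10, 1.20 and 0.965 in the same order, a narrower range than their share of miR-26b-5p reads. They were left with miR-26b-5p. The reverse kind, with the miR-26a-5p body up to base 20 followed by U, had 204 reads in HSC, 76 in imDC, 41 in maDC, with 37 in DCreg. Those reads were left with miR-26a-5p.

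DCreg and imDC, and each DC library and HSC, complete the comparisons, and they share libraries with those above. Against imDC, miR-26b-5p in DCreg was 2.26-fold lower (recount 3.18-fold, 3.09 to 3.28), where 56% of 168 tested miRNAs were called lower and 16.1% higher (72% in either direction). miR-26a-5p stood at 2331 ppm in DCreg and 2501 in imDC (recount 1.51-fold lower, 1.47 to 1.54). Its direction turned with the scaling: the log2 ratio was 0.55 with TMM, 0.62 with median-of-ratios and 0.46 without let-7, against -0.10 with the column total. It was 0.17 without every miRNA that was among the 5 most abundant of any library, several let-7 members included. Against HSC, maDC had 3.66-fold less miR-26a-5p and 3.15-fold less miR-26b-5p, with 48.9% of 180 tested miRNAs called lower and 21.7% higher (70.6% in either direction). Against HSC, DCreg had 2.47-fold less miR-26a-5p and 5.18-fold less miR-26b-5p, with 56% of 175 called lower and 19.4% higher (75.4% in either direction). In these 3 comparisons 5 of the 6 member ratios were called lower, and since calls of lower were common among all miRNAs nothing particular to the family is read from them. With TMM the calls held for miR-26a-5p in maDC against HSC (log2 ratio -1.11) and for miR-26b-5p in DCreg against HSC (-1.51). They were lost for miR-26b-5p in DCreg against imDC (-0.52) and in maDC against HSC (-0.90), and for miR-26a-5p in DCreg against HSC (-0.44). With median-of-ratios the call of miR-26b-5p in DCreg against imDC (-0.46) and that of miR-26a-5p in DCreg against HSC (-0.67) were lost. Without the 5 most abundant miRNAs of each library these last 2 calls were also lost (-0.90 for both). Without let-7 that of miR-26b-5p in DCreg against imDC was lost (-0.62). With TMM the higher and lower calls over all miRNAs were 33 and 65 in DCreg against imDC (27 and 94 with the column total), 50 and 69 in maDC against HSC (39 and 88), and 47 and 73 in DCreg against HSC (34 and 98).

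Profiles most like those of the members were found by the distance between log2 levels over the 4 libraries, each centred on its mean, among 198 miRNAs that reached 100 ppm. Nearest to miR-26a-5p was miR-15a-5p (distance 0.33), which had 1824 ppm in HSC, 910 in imDC, 498 in maDC, with 617 in DCreg. It was followed by miR-30c-5p (0.73), miR-532-5p (0.75), miR-503-5p (0.77) and let-7d-3p (0.83). Nearest to miR-26b-5p was miR-181a-5p (0.31), with 6783, 3926, 2253 and 1441 ppm in the same order. miR-5100 (0.42), miR-532-5p (0.58), miR-106b-5p (0.59) and miR-16-5p (0.62) followed. The members were not each other's nearest profile: at a distance of 1.01, miR-26b-5p ranked 12 from miR-26a-5p, and miR-26a-5p ranked 24 from miR-26b-5p. These are likenesses over 4 points that share library totals.

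Other miRNAs reported as repressed by MYC in lymphoma cells did not move as a group. Of 19 such miRNAs, 18 could be tested between imDC and HSC, with 4 higher and 5 lower in imDC and a median log2 ratio of -0.53, against -0.12 over all tested. Between maDC and imDC, 2 of 15 were higher and 7 lower (median -0.89, against -0.88 over all tested). Between DCreg and maDC, 1 of 13 was higher and 1 lower (median -0.12, against -0.34), where 20.3% of all tested were called higher and 28.3% lower. miR-16-5p, a cell-cycle regulator, had 4137 ppm in imDC and 8239 in HSC, just under the 2-fold limit (log2 ratio -0.99). miR-22-3p, a myeloid miRNA, went the other way, with 2332 ppm in imDC and 436 in HSC. The other myeloid markers did not all do so. miR-21-5p had 140653 ppm in imDC and 19982 in HSC, and miR-223-5p had 791 and 702. miR-223-3p was lower in imDC, with 2264 ppm against 3438 in HSC. miR-34a-5p, a target of p53, had 208 ppm in imDC and 14.7 in HSC. Over all tested miRNAs, 26.2% were called higher and 28.3% lower in imDC against HSC, and 9.38% and 45% in maDC against imDC.

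The reads of the members were next examined for their ends. The 5′ end, which sets the seed, was fixed: the annotated base began 99.1% (DCreg) to 99.3% (imDC) of miR-26a-5p reads and 99.3% (DCreg) to 99.7% (imDC) of miR-26b-5p reads. The 3′ end varied, with 111 (DCreg) to 200 (HSC) distinct sequences for miR-26a-5p and 64 (DCreg) to 131 (HSC) for miR-26b-5p. The 3 reads of each member that were commonest over the 4 libraries together are shown because they hold the differences described next. The order within a library can differ. Capitals mark tail bases that are not in the hairpin.
miR-26a-5p, most frequent read: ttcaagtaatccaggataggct
miR-26a-5p, second: ttcaagtaatccaggataggc
miR-26a-5p, the third: ttcaagtaatccaggataggctA
miR-26b-5p, most frequent read: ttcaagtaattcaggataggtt
miR-26b-5p, second: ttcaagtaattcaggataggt
miR-26b-5p, the third: ttcaagtaattcaggataggttT
The full-length miR-26a-5p read made up 52.0% of its reads in HSC, 49.7% in imDC, 47.1% in maDC, with 51.1% in DCreg. The read 1 base shorter made up 9.0%, 7.19%, 3.04% and 5.39% in the same order. The read with an added A made up 3.76%, 6.30%, 12.3% and 9.52%, so that it was the second read in maDC and in DCreg. The leading miR-26b-5p read was 1 base longer than the annotated sequence, and its last U is also in the hairpin. It made up 67.3%, 72.9%, 76.3% and 69.0% in the same order. A U added to the annotated sequence would give the same read, so the source of that U cannot be told. The annotated sequence itself was at 7.52% (maDC) to 12.6% (DCreg), and in maDC it had 1089 reads against 1091 of the read with an added U.

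Tails that could be told apart from the hairpin sequence were much more frequent on miR-26a-5p. A tail was present on 29.2% of miR-26a-5p reads in HSC (28.8% to 29.7%), 32.2% in imDC (31.6% to 32.8%), 47.2% in maDC (46.3% to 48.1%), with 39.3% in DCreg (38.4% to 40.2%). On miR-26b-5p it was present on 17.9% in HSC (17.5% to 18.3%), 13.5% in imDC (13.1% to 14.0%), 14.7% in maDC (14.1% to 15.2%), with 16.1% in DCreg (15.1% to 17.1%). The miR-26a-5p share was thus highest in maDC, whereas that of miR-26b-5p stayed within 5 points over the 4 libraries. Of 44 other miRNAs with at least 1000 reads in every library, the median tailed share was between 14.8% (imDC) and 17.9% (maDC), near the level of miR-26b-5p. In maDC 41 of the 44 had a lower tailed share than miR-26a-5p. A U on a read that lost its last base looks like the templated one, so these shares are minimum values. On miR-26b-5p a U added after the annotated last base also looks templated, which it does not on miR-26a-5p. The true gap between the members in U tails therefore cannot be read from these shares.

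Tails of A carried most of the difference in maDC. Tails of A alone made up 8.63% of miR-26a-5p reads in HSC, 12.3% in imDC, 21.7% in maDC (20.9% to 22.4%), with 16.9% in DCreg. Tails of U alone stayed between 11.0% (imDC) and 12.8% (HSC). Mixed tails of A and U, mostly A followed by U, made up 6.57% in HSC, 7.05% in imDC, 11.7% in maDC, with 8.77% in DCreg. On miR-26b-5p, tails of A alone stayed between 4.01% (imDC) and 5.05% (HSC). Between maDC and imDC the A-only share of miR-26a-5p was 9.42 points higher, against a median of 0.79 points in the 44 other miRNAs, of which 1 changed by more. As a fold of the share, a measure chosen after seeing the data, it was 1.77-fold higher, with 9 of the 44 above that and a median of 1.17. In DCreg minus maDC the difference was -4.79 points, below all 44 others, whose lowest value was -4.06. As a fold that was 0.779, and 9 of the 44 were lower.

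**Figure D4:**
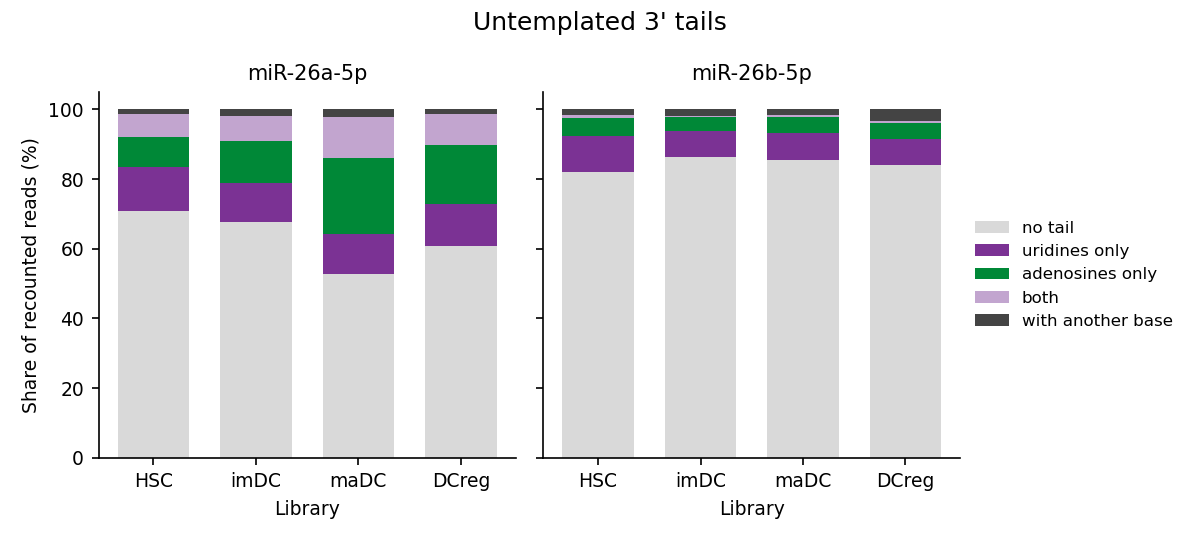
Share of recounted reads with no untemplated 3′ tail, with uridines only, adenosines only, both, or a tail with another base, in percent, for each member and library. In miR-26a-5p the adenosine share is 21.7% in maDC, against 12.3% in imDC, while the bars of miR-26b-5p differ little.

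In amount, the form of miR-26a-5p with a single added A differed by less than counting error between maDC and imDC when scaled by the recounted total. Reads with a single added A had 302 ppm of recounted reads in maDC (288 to 317), against 305 in imDC (290 to 320), while untailed full-length reads had 1021 ppm in maDC (995 to 1048), against 2099 in imDC (2060 to 2139). Untailed reads shorter than the annotated sequence had 106 ppm in maDC (97.6 to 115), against 731 in imDC (708 to 754), 6.89-fold lower (6.32 to 7.53). The same short form of miR-26b-5p was 12.2-fold lower in maDC (9.82 to 15.4), at 15.8 ppm against 193 in imDC. These levels move with the scaling, as the member ratios at this step do, whereas the order of the forms by fold does not. Reads whose templated part ended before the annotated base were 11.5 points rarer for miR-26a-5p in maDC than in imDC, with a median of -0.69 points and a range from -59.4 to 28.4 over the 44 others. Among miR-26a-5p reads that kept the annotated last base, a tail was present on 31.3% in HSC, 37.1% in imDC, 47.7% in maDC, with 38.6% in DCreg. The order of the libraries thus held without the shortened reads. Over all reads the shares were 32.2% in imDC, 47.2% in maDC and 39.3% in DCreg, so the gaps to imDC were narrower here.

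Within the U tails of miR-26a-5p, the balance of UU and single U differed between the libraries. UU tails made up 8.05% of miR-26a-5p reads in HSC, 7.00% in imDC, 4.10% in maDC, with 3.72% in DCreg. Single U tails made up 3.85% in HSC, 2.70% in imDC, 6.79% in maDC, with 8.22% in DCreg. The single form was thus the rarer of the pair in HSC and imDC and the commoner in maDC and DCreg. Of reads with either tail, the single form was 32.3% in HSC (31.0% to 33.7%), 27.8% in imDC (25.9% to 29.8%), 62.4% in maDC (59.6% to 65.0%), with 68.8% in DCreg (66.2% to 71.4%). In amount, UU-tailed reads had 87.6 ppm in maDC, against 292 in imDC, 3.34-fold lower (3.01 to 3.70), whereas single-U reads had 145 ppm in maDC, against 113 in imDC, 1.29-fold higher (1.16 to 1.44).

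This balance was compared with other miRNAs, with the measure chosen after the miR-26a-5p values were seen. The single share of miR-26a-5p was 34.5 points higher in maDC than in imDC. Over 32 other miRNAs with at least 100 such reads in every library the change had a median of -0.16 points and ran from -5.43 to 6.72. Of these, 28 already had a single share of 84.7% to 99.2% in imDC and had no room for a change of that size in points. The 4 that began under 50%, all of them let-7 members, were 2.42 to 6.72 points higher. The odds of a single over a double tail, a scale without that ceiling and also chosen after seeing the data, were 4.30-fold higher in maDC than in imDC for miR-26a-5p. The same fold ran from 0.316 to 2.07 over the 32 others and was 1.99 for miR-26b-5p. Between DCreg and maDC miR-26a-5p was 6.49 points higher, and 3 of the 32, again let-7 members, were higher by more, by up to 29.5 points. By the odds it was 1.33-fold higher in DCreg, and 9 of the 32 lay above that, up to 4.29-fold. On miR-26b-5p the single form was 92.4% (imDC) to 96.3% (HSC) of such reads, and it was 3.62 points higher in maDC than in imDC. Because Mir26b goes on with U, UU added to annotated miR-26b-5p looks like a single U tail, and U added looks like none. The measure therefore does not count the same thing on both members. Which hairpins of the 32 other miRNAs also go on with U was not examined. With 1 library per cell type, a difference between cell types and a difference between library preparations cannot be told apart for any of these end forms.

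**Figure D5:**
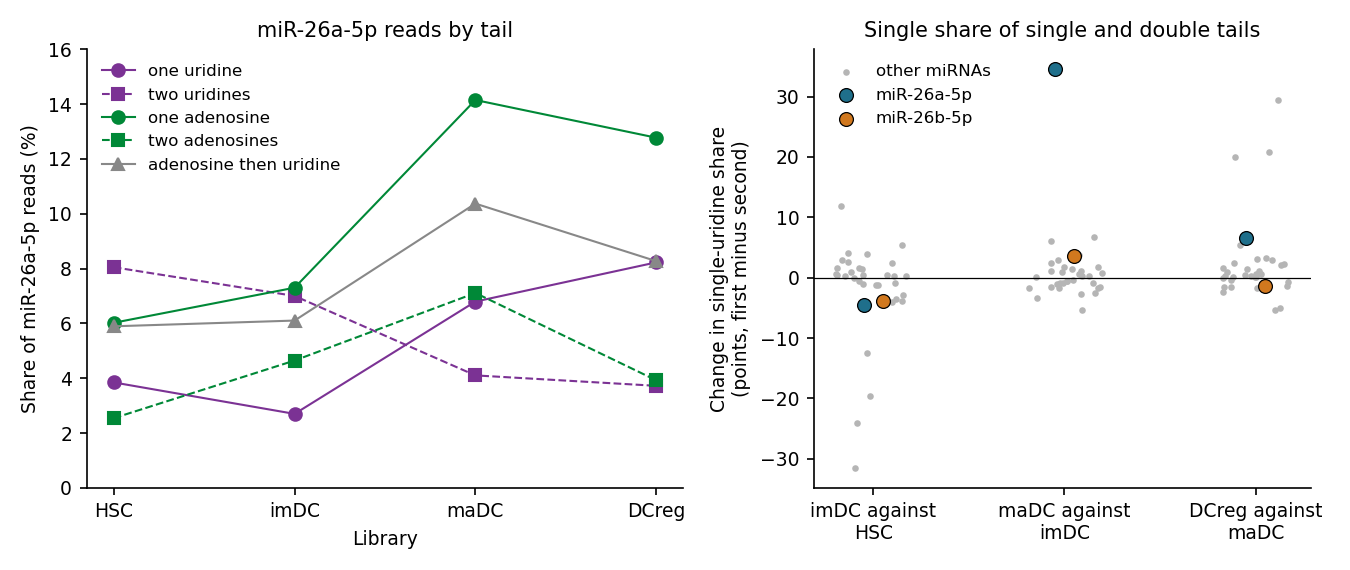
Left, share of miR-26a-5p reads with each short tail, in percent, by library in order of the lineage. Right, change in the single-uridine share of single and double uridine tails at each step, in points, for 32 other miRNAs (grey) and the miR-26 members: miR-26a-5p lies at 34.5 points in maDC against imDC, where the others reach 6.72, but 28 of the 32 start at 84.7% or more in imDC and could not rise that far.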

How the data were processed

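Small RNA of 18 to 30 nt was purified on gels and amplified for 12 cycles, per the labels' protocols. Per the labels' protocols, reads of other RNA classes were filtered out and the remainder was compared with miRBase release 19. The sources used here do not give the aligner, the mismatches allowed, the genome build or the normalisation. The series table holds a score per mature miRNA and hairpin (1195 entries), deposited by the authors as whole numbers and named normalised counts in the header, so no count model was used on it. The per-library files hold unique sequences with copy numbers, deposited as counts of reads.

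Scores were summed over hairpins and scaled to 1000000 per library. Log2 ratios include a pseudocount of 0.5. Reads were recounted by exact match to RefSeq hairpins (found for 800 of 1078 names; otherwise the mature sequence): start shifted by at most 2 nt, at least 16 matched nt, at most 5 unmatched 3′ bases (the tail), longest match first, ties divided equally. The recount was tested on simulated reads with annotated ends, where part of the miR-26a-5p reads had a UU tail. Shortened reads, shifted 5′ ends and other tails were not simulated. Named miRNAs are the members, their opposite arms, the 5 nearest profiles of each and a list of MYC-repressed miRNAs; members and lists were chosen with earlier results of these data known. Python 3.11.15, NumPy 2.4.6, SciPy 1.17.1 and matplotlib 3.10.9 were used. Alternatives were TMM, median-of-ratios, other totals, recounted reads, another pseudocount, and stricter read matching.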

Additional observations from a re-analysis of the deposited data

How the results depend on the processing

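Depth limited little here, as each member had at least 5347 reads in a library, except for the opposite arms. With 1 library per cell type, values were compared with their counting intervals only. No paired analysis was possible because each cell type has 1 library here. Of the log2 ratios of miR-26a-5p and miR-26b-5p at each step, those with a pseudocount of 5 moved by less than the counting interval. For imDC against HSC (main -1.20 and -1.20), the other settings gave -0.99 and -0.99 with TMM, -1.29 and -1.29 with median-of-ratios, -0.95 and -0.95 when all reads formed the total, -1.07 and -1.06 without the 5 most abundant miRNAs of any library, -0.81 and -0.83 in recounted reads, and -1.59 and -1.59 with the column total without let-7, a setting chosen after seeing the data. For maDC against imDC (main -0.67 and -0.45), in the same order they were -0.12 and 0.10, 0.034 and 0.25, -0.90 and -0.69, -0.52 and -0.31, -0.97 and -0.72, and -0.23 and -0.014. For DCreg against maDC (main 0.57 and -0.72), they were 0.67 and -0.61 with TMM, 0.28 and -1.01 when all reads formed the total, 0.69 and -0.60 without the 5 most abundant, 0.38 and -0.95 in recounted reads, and 0.69 and -0.60 without let-7; median-of-ratios stayed within the interval. These settings shift all miRNAs of a library alike, by up to 0.70 in the median for maDC against imDC, except the recount, where the cause was not tested.

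The miR-26b-5p share moved with deposited values, to 67.1% in HSC, 67.1% in imDC, 70.3% in maDC, with 49.2% in DCreg. Reads of the annotated 5′ end only left that share within its interval. The tailed shares of both members in all 4 libraries stayed within their intervals with the annotated 5′ end only, with sequences of at least 2 copies and with a match of at least 18 nt. Over all tested miRNAs, calls were 62 higher and 40 lower in imDC against HSC with TMM (main 49 and 53), and 30 and 37 in maDC against imDC with median-of-ratios (main 15 and 72). Without a minimum level, 285 were higher and 294 lower in imDC against HSC, and 141 and 419 in maDC against imDC.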
